A study of Mus musculus with 33 samples.

Results

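miR-210 is a microRNA, a short RNA that pairs with messenger RNAs and lowers their translation or stability. It was 1 of 650 miRNAs, of which 611 were mouse miRNAs, that had probes on the arrays of these lungs. It was taken by its array name, mmu-miR-210, with both of its probes and the background flags of their spots. Lung RNA came from female mice of the inbred strain C57BL/6. No genetic change is named in the labels, and no age is given in the sources used here. The exposed mice received 0.162 mg Printex 90, a carbon black of nanosized particles, into the trachea. The control mice received the vehicle, MilliQ water with 0.9% NaCl that also held 10% v/v acellular bronchoalveolar lavage (BAL) fluid, so the groups share the instillation and the lavage fluid. The arrays fell into 6 groups. There were 6 control and 6 exposed mice at day 1, 6 control and 4 exposed at day 3, and 6 control and 5 exposed at day 28, with 1 array for each mouse. The comparison of exposed with control lungs on each day asks whether the particles changed the miRNA in the lung at that time.

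miR-210 is the miRNA most closely tied to low oxygen. Hypoxia-inducible factors bind near its gene and raise its transcription in most cell types examined, endothelial and epithelial cells included. Among its known targets are ISCU, a scaffold for the assembly of iron-sulphur clusters in mitochondria, and EFNA3, a ligand involved in vessel growth. Particle instillation brings inflammatory cells into the airways, and inflamed tissue can be short of oxygen.

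The sequences show both strands of the miRNA and how it differs from other miRNAs that respond to hypoxia. They were taken from RefSeq annotation of GRCm38.p6, and capitals mark the seed, bases 2 to 8, which pairs with targets.
mmu-miR-210-3p: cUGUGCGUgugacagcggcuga
mmu-miR-210-5p: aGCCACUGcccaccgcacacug
mmu-miR-21a-5p: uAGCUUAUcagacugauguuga
mmu-miR-103-3p: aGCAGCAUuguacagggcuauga
mmu-miR-107-3p: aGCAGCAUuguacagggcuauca
The 3p strand lies at chr7:141221407-141221428 and the 5p strand at chr7:141221445-141221466, both on the minus strand of GRCm38.p6. The name without an arm was long used for the 3p strand, and no probe named for the other strand was found on the array. The probe sequences were not in the sources used here, so the array name was paired with the 3p strand by naming alone. The seed of miR-210-3p was held by no other of the 1679 mature names in the RefSeq table. The nearest other mature sequence was 7 edits away, so the table holds no close copy. miR-103 and miR-107, in contrast, share their seed with each other. Of the bases of miR-210-3p, 63.6% were G or C, against a median of 52.2% over the mature sequences.

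The hairpin from which both strands are cut is shown because the RNA of the gene folds into it, with the 3p strand in capitals at bases 66 to 87.
Mir210 hairpin: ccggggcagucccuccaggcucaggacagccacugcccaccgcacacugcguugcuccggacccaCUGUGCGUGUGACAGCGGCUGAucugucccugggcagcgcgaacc
It spans chr7:141221384-141221493 on the minus strand of GRCm38.p6, which is 110 bases. No other gene of the RefSeq table overlapped it. The neighbouring genes were Rassf7, at a distance of 2725 bases, and Gm51460, at 6712 bases.

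miR-210 was a dim miRNA in these lungs. Each array carried 10 spots of each of its probes, and 7 to 10 of them per array were used for the brighter probe. Its mean processed signal, in background-subtracted units of spot brightness, ran from -0.88 to 25.1 over the 33 arrays, with a median of 12.1 units. The SD between spots of an array was 1.12 to 3.30 units. On each array, the 95th percentile of the negative control spots, which match no miRNA, was between 4.30 and 7.01 units. Their median was between 1.81 and 3.34 units, so the subtraction left some signal in empty spots. That rest was not removed before scaling, and dividing by array brightness makes it larger on dim arrays. The brighter probe lay above the 95th percentile on 29 of the 33 arrays, so on most arrays it gave a signal. On the others it lay below that percentile of single spots. That does not show that a mean over several spots equalled empty spots. On replicate 27, a control of day 1, the mean of -0.88 units was below that array's negative control median of 3.01. The scanner software marked 190 of 319 spots of this probe as well above background. By the rule used here, that most spots of a probe must be so marked, miR-210 was above background on 17 of the 33 arrays. Those were 11 of 18 control arrays and 6 of 15 exposed arrays. Of the 172 miRNAs tested, 20 were above background on fewer arrays. miR-210 entered the 172 only through the controls of day 28, the only group with at least 4 such arrays.

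The other probe gave no usable signal. Its values ran from -1.75 to 8.01 units with a median of 2.68. None of its 326 spots was marked as well above background on any array, and it lay over the 95th percentile of the negative controls on 3 arrays. All levels below are therefore those of the brighter probe.

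The arrays differed in brightness, which bears directly on a probe this dim. The 75th percentile of 156 probes detected on all arrays was between 187 and 1211 units, with a median of 634, and each array was divided by its own percentile relative to their geometric mean. Between 99 and 193 mouse miRNAs were above background per array, 149 in the median, and 94 miRNAs on all arrays. The arrays lay on 9 slides scanned on 5 days. Control arrays sat at the first 2 positions of a slide and exposed arrays at positions 3 and 4, so position and treatment cannot be told apart. All 5 epithelial miRNAs of the miR-200 family were above background on all 33 arrays. Of the 2 endothelial miRNAs, miR-126-3p was above background on all 33 and miR-126-5p, from the other strand, on 23. Of the 3 brain miRNAs, miR-124 and miR-9 were above background on none and miR-128 on 6.

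In the control lungs of day 1, the scaled signal of miR-210 was 17.5, 12.7, 8.30, 14.0, 7.99 and -2.94 units. In the exposed lungs of that day it was 17.7, 13.1, 8.37, 11.2, 11.2 and 9.10 units. The groups overlapped over nearly their whole range, and a single control array, replicate 27, read below 0. That array was also the dimmest of the 33, at 187 units, and its value was set to the floor of 1 unit, a log2 of 0, which is a limit of measurement and not a level.

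In the control lungs of day 3, the values were 16.6, 10.5, 12.7, 8.68, 13.5 and 10.9 units. In the exposed lungs they were 16.2, 13.6, 9.14 and 12.6 units. All 4 exposed values lay within the range of the controls. In the control lungs of day 28, the values were 14.4, 13.7, 10.5, 9.78, 11.0 and 13.0 units. In the exposed lungs they were 12.1, 10.8, 12.6, 7.33 and 9.21 units. At this day 2 exposed lungs lay below every control, 3 lay among the controls, and the 3 highest values were controls.

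**Figure D1:**
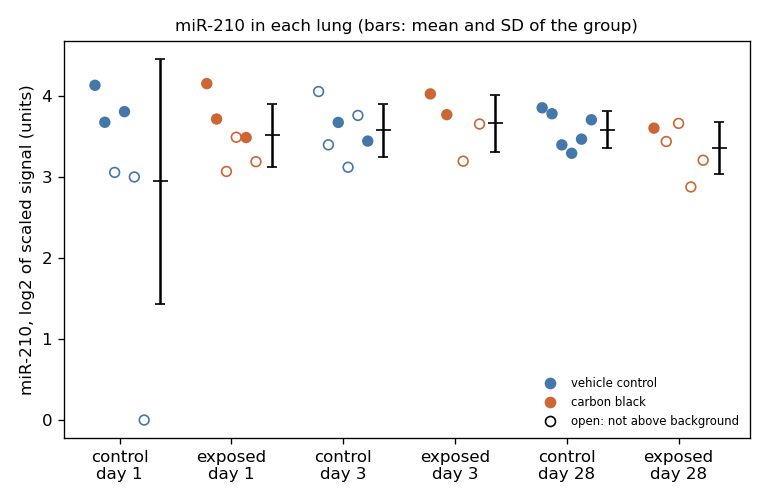
miR-210 in each lung as log2 of the scaled signal of its brighter probe (y axis), by treatment and day (x axis). Each point is 1 array, filled where miR-210 was above background, and bars give the mean and SD of each group. All groups overlap, and 1 control array of day 1 lies at the floor of 0, below all others.

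On the log2 scale the group means were 2.94 ± 1.51 (SD, n = 6) in controls and 3.51 ± 0.39 (n = 6) in exposed lungs at day 1. At day 3 they were 3.57 ± 0.33 (n = 6) and 3.66 ± 0.35 (n = 4), and at day 28 they were 3.58 ± 0.23 (n = 6) and 3.35 ± 0.32 (n = 5). From high to low, the order was exposed day 3, control day 28, control day 3, exposed day 1, exposed day 28 and control day 1. The pooled SD of single arrays within groups was 0.71. Without replicate 27 that SD was 0.35, and the control mean of day 1 was 3.53 ± 0.49 (n = 5).

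No exposure change of miR-210 passed the test on any day. At day 1 the exposed mean was 0.57 higher on the log2 scale (95% interval -0.24 to 1.38), with an adjusted p of 0.516 by limma with Benjamini-Hochberg adjustment over the 172 miRNAs. At day 3 the difference was 0.086 (-0.82 to 0.99, adjusted p 0.996), and at day 28 it was -0.23 (-1.07 to 0.62, adjusted p 0.985). The share of all tested miRNAs called in these fits, at an adjusted p under 0.05, was 0% on each day, so miR-210 did not stand apart from the rest in this. Without adjustment, p was under 0.05 for 9 higher and 7 lower miRNAs at day 1, for 2 higher and 0 lower at day 3, and for 9 higher and 4 lower at day 28, and miR-210 was not among them. Two-sided exact permutation tests of the same miR-210 values over the arrays of each day gave p = 0.530, 0.695 and 0.216, and 0.695, 0.695 and 0.649 after adjustment over the 3 days.

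The difference at day 1 rested on replicate 27. Without that array it was -0.017 (95% interval -0.46 to 0.43, limma adjusted p 0.972), and the exact permutation p was 0.944. In the same fit the intervals were -0.39 to 0.56 at day 3 and -0.67 to 0.22 at day 28. A change of 1 on the log2 scale, in either direction, lay outside all 3 of these intervals, and smaller changes of either sign lay within them. With all arrays the interval reached 1.38 at day 1 and -1.07 at day 28, so a change of 1 was not excluded there. Replicate 27 was singled out after its value was seen. The groups are small and the arrays few, so a p that misses the threshold does not show that the levels were equal.

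**Figure D2:**
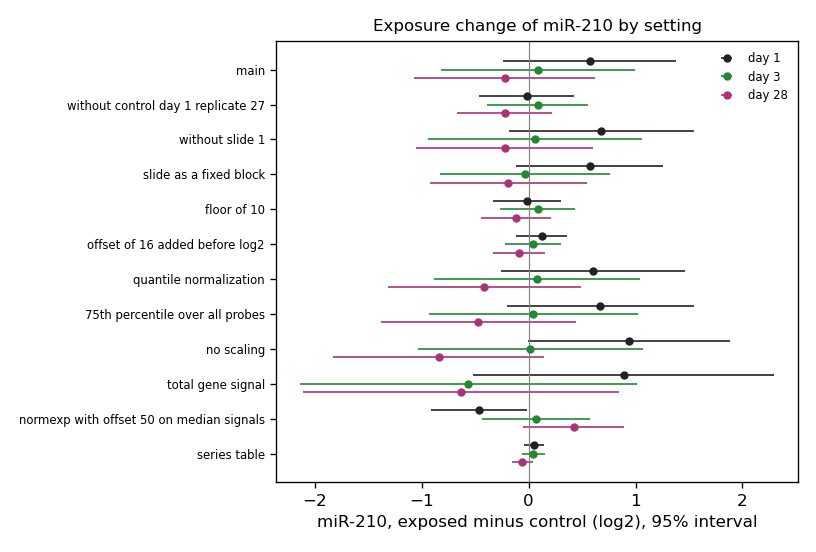
Exposure change of miR-210, exposed minus control on the log2 scale (x axis), with 95% intervals, for days 1, 3 and 28 under 12 ways of handling the arrays (y axis). At day 1 the change of 0.57 becomes -0.017 without control replicate 27, -0.47 with normexp at an offset of 50 and -0.016 with a floor of 10, and it is above 0 in the other 9 settings drawn.

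The exposure change was not shown to differ between days. It was lower by 0.49 at day 3 than at day 1, with a limma adjusted p of 0.990, and lower by 0.80 at day 28 than at day 1, with an adjusted p of 0.925. Between day 28 and day 3 the difference was -0.31 (adjusted p 0.999). Without replicate 27 the first 2 of these were 0.10 and -0.21, so they too rested largely on that array. Called miRNAs made up 0% of those tested in each of the 3 comparisons.

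Within a treatment, no difference of miR-210 between days passed the test either. In controls it was 0.63 higher at day 3 and 0.64 higher at day 28 than at day 1, with limma adjusted p of 0.818 and 0.297. Without replicate 27 these values were 0.041 and 0.049. Between day 28 and day 3 the control means differed by 0.0080 (adjusted p 0.987). In exposed lungs the differences were 0.14 from day 1 to day 3 (adjusted p 0.978), -0.16 from day 1 to day 28 (0.897) and -0.30 from day 3 to day 28 (0.732). The background was not empty in all of these: 6.98% of tested miRNAs were called between control days 28 and 1, 0.581% between control days 28 and 3, and 1.74% between exposed days 28 and 3. It was 0% between days 3 and 1 in controls and in exposed lungs. The comparisons that share a day share arrays and are not independent.

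By the rule used here, detection counts differed at day 28, where the exposed arrays were also dimmer on average. Between 141 and 187 mouse miRNAs were above background on each control array of day 28, and between 126 and 193 on each exposed array. The exposed array with 193 was the 1 that detected miR-210. miR-210 was above background on 6 of 6 control arrays and 1 of 5 exposed arrays at that day, on 3 of 6 and 3 of 6 at day 1, and on 2 of 6 and 2 of 4 at day 3. Fisher's exact test gave p = 0.0152 at day 28, or 0.0455 after adjustment over the 3 days, and p = 1 at the other two. The 6 controls of day 28 were the only group that let miR-210 pass the filter, by these same marks. The Fisher p at day 28 is thus not separate support for a change. Fisher's test also takes the arrays as independent, but 5 of the controls of day 28 shared a slide with an exposed array. Over those 5 pairs, 4 had miR-210 above background in the control alone and 0 in the exposed array alone, with an exact paired p of 0.125, and 5 pairs cannot give less than 0.0625. The paired test could thus not pass 0.05, and it cannot show whether the call at day 28 depended on leaving the slides out. The software's own detection call, given once for each miRNA, found it on 6 of 6 control and 4 of 5 exposed arrays at day 28, with Fisher's exact p = 0.455. That call marked 27 of the 33 arrays, so the day 28 difference in detection depended on the rule for calling it. These tests were chosen after the values were seen, and how many other miRNAs had such detection counts at day 28 was not counted.

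Arrays with miR-210 above background had a 75th percentile of 377 to 1211 units, with a median of 799. On the other arrays it was 187 to 787 units, with a median of 508. The 10 brightest arrays all detected it and the 4 dimmest did not, while 7 of the 19 arrays between them did. At day 28 the exposed arrays were dimmer than the controls by 0.62 on the log2 scale (exact permutation p = 0.0606), and at day 1 they were brighter by 0.66 (p = 0.0779). The part of brightness in the detection counts was not tested.

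**Figure D3:**
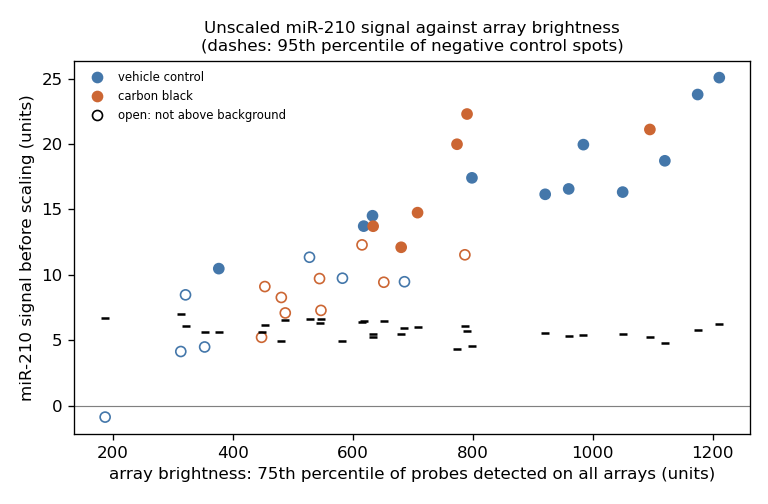
miR-210 signal before scaling (y axis, units of background-subtracted brightness) against array brightness, the 75th percentile of 156 probes (x axis, same units), for 33 arrays. Filled points are above background, dashes mark the 95th percentile of negative control spots of the same array, and the 10 brightest arrays are all filled while the 4 dimmest are open.

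Slide 1 stood apart. The 4 arrays of slide 1, which had a scan day of its own, held the 4 highest scaled values, 16.2 to 17.7 units, and they came from both treatments and from days 1 and 3. The arrays of the other 8 slides lay between -2.94 and 14.4 units. Slide 1 was not the brightest slide: the percentiles of its arrays were 321 to 791 units. Most slides held a control and an exposed array of the same day, which allows a comparison within a slide.

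On the same slide, the exposed array read higher in 5 of 6 pairs at day 1, by between -0.32 and 3.19 on the log2 scale with a median of 0.030. The value of 3.19 came from the slide with replicate 27. At day 3 it was higher in 2 of 4 pairs (-0.48 to 0.37, median 0.090). At day 28 it was higher in 1 of 5 pairs and lower in 4 (-0.42 to 0.26, median -0.26). With slide as a fixed term in the limma fit, the day 3 difference turned from 0.086 to -0.036, and no exposure change was called.

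**Figure D4:**
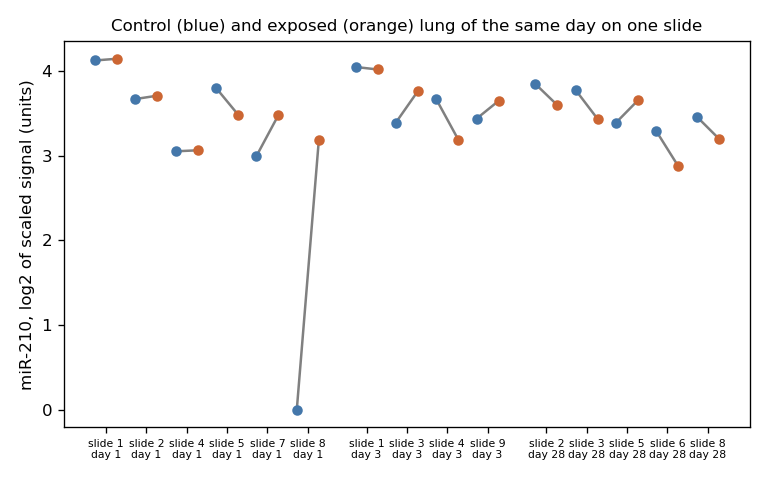
log2 of scaled miR-210 signal (y axis) in control and exposed arrays of the same day on the same slide (x axis), joined by lines. Apart from the slide with replicate 27, the lines at day 1 change by between -0.32 and 0.49. At day 28 they change by between -0.42 and 0.26, and 4 of 5 go down.

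The spread of miR-210 over all arrays was wide for a tested miRNA, and this rested on replicate 27. Its residual SD over the 6 groups, 0.71 on the log2 scale, was at percentile 91.9 of the 172, where the median was 0.28. Without replicate 27 it was 0.35, at percentile 63.4, with a median of 0.27. The changes of miR-210 stood at percentiles 94.2, 79.7 and 9.30 of all tested changes at days 1, 3 and 28, and the medians of all changes were -0.097, -0.036 and -0.034. Without replicate 27 the percentile at day 1 was 64.0.

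The miRNAs whose values over the 33 arrays were most like those of miR-210 were miR-425, with a Pearson r of 0.87, miR-193b (0.83), miR-29a (0.70), miR-100 (0.67), miR-362-3p (0.65), miR-18a (0.64), miR-152 (0.64) and miR-224 (0.60). The median r over the 171 other tested miRNAs was 0.071. All points of such a correlation come from the same arrays and share their scaling. The first places rested on replicate 27: without it, r was 0.29 for miR-425 and 0.49 for miR-193b, which are also low on that array. Of the 8, only miR-29a (0.72) and miR-224 (0.64) stayed among the 8 highest over the 32 remaining arrays. Slide 1 carried part of these values too: without replicate 27 and slide 1, r was 0.61 for miR-29a and 0.45 for miR-224, and the highest was 0.65, for miR-29c, a name chosen after its value was seen. miR-29a, best known for repressing collagens, was above background on all 33 arrays.

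**Figure D5:**
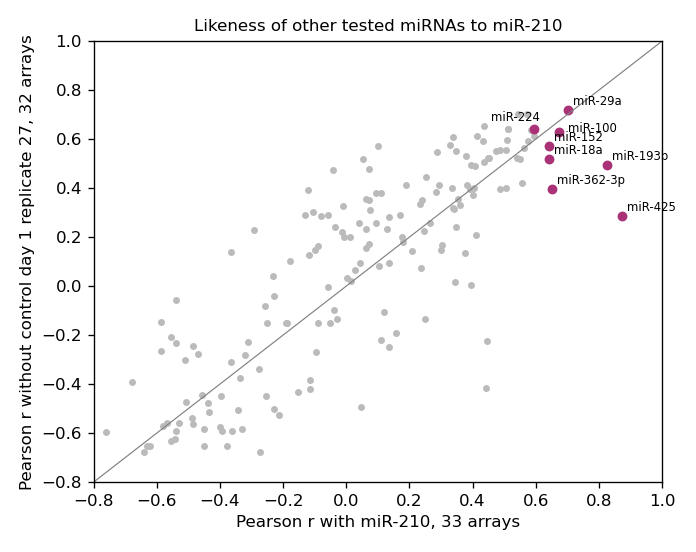
Pearson r of 171 other tested miRNAs with miR-210 over 33 arrays (x axis) and over the 32 arrays without control day 1 replicate 27 (y axis), on the log2 scale. Coloured points are the 8 highest on the x axis, and miR-425 falls farthest below the diagonal among them, from 0.87 to 0.29.

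Other miRNAs linked to hypoxia were set beside miR-210. All 14 miRNAs of a list that cells raise in low oxygen passed the filter on low signals, and 11 of them were above background on all arrays. At day 1, 5 read higher and 9 lower with a median of -0.093, at day 3, 4 and 10 with a median of -0.032, and at day 28, 5 and 9 with a median of -0.066. None was called on any day by limma, and 3, 0 and 2 had an unadjusted p under 0.05. Among all tested miRNAs 34.9%, 37.8% and 43.6% read higher on those days.

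miR-21, which many cell types raise in injury and inflammation and whose sequence is shown above, differed by 0.41 (SE 0.22), 0.27 (SE 0.25) and 0.85 (SE 0.23) on days 1, 3 and 28. Its limma adjusted p was 0.487, 0.996 and 0.157, so none passed the test. miR-23a, which shares a cluster with miR-24 and miR-27a, differed by -0.11, 0.033 and -0.14, with adjusted p of 0.632, 0.996 and 0.864.

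A second list held 7 miRNAs that fall in low oxygen or act on HIF1A, the oxygen-sensitive subunit of the factor that drives miR-210. Of these, 6 passed the filter, and miR-17 was above background on no array. At day 1, 3 read higher and 3 lower (median 0.0025), at day 3, 4 and 2 (0.017), and at day 28, 1 and 5 (-0.046), and none was called. miR-200b, an epithelial miRNA, differed by -0.15, -0.14 and -0.13. miR-34a, a target of p53, differed by -0.19, 0.0014 and -0.057.

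Markers of cells other than lung parenchyma were read on the same arrays. The 3 erythroid and 3 myeloid miRNAs were above background on all 33 arrays. The median exposure change of the erythroid list was -0.022, 0.46 and -0.20 on days 1, 3 and 28. That of the white blood cell list was 0.51, 0.016 and 0.15. The 3 muscle miRNAs, above background on 10 to 31 arrays, had medians of 0.64, -1.35 and -1.35. No member of these lists was called on any day. In whole lung, a change in the number of cells of a type and a change of RNA within them cannot be told apart, and the part of these cells in the miR-210 values was not tested.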

How the data were processed

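Small-RNA-enriched total RNA of each lung carried 1 dye, Cy3, and was hybridised to Agilent miRNA slides, per the labels' protocols. Spot intensity is linear and background-subtracted in the deposited scanner output of Feature Extraction 10.7.3.1, per the file headers. The authors also deposited a series table of log2 values, 1 for each miRNA on each array. Set against the log2 median spot signals, it correlated at 0.991 to 1.00 by array. Its column medians were 5.41 to 5.43, and how it was further processed stayed unknown, so it served as an alternative.

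The 13715 spots of an array, 13000 of them for miRNAs, covered 1857 probes. Spots marked as outliers (2.30%) were left out, none was saturated, and spots of a probe were averaged. Processed signals were scaled to each array's 75th percentile over 156 probes detected on all arrays, floored at 1 and log2 transformed. Each miRNA took its brightest probe. A miRNA was above background where over 50% of the spots of any probe were so marked. It was tested if above background on at least 4 arrays of a group, which left 172. miR-210 met this only through the controls of day 28, so its day 28 comparisons and its percentiles are read within that set. With no filter, over 650 miRNAs, its exposure changes were the same and none had an adjusted p under 0.05. limma 3.58.1 in R 4.3.3 fitted 6 group means with a trended prior, with Benjamini-Hochberg adjustment over the 172 and a threshold of 0.05, after testing on simulated data. Exact permutation tests used the arrays of each day. The number of arrays limits the precision. The labels give groups and 1 running number per array, which pairs no samples.

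miR-210, the lists and the tests were chosen with earlier results of these data known. Named beside miR-210 were miR-21, the 2 members of each list with the highest mean signal, and the 8 miRNAs of highest Pearson r with it. Normexp used the median spot signals, since no column of mean spot signals was found in the scanner files. Other alternatives were the scaling, floor, filter, probe, slide, scan day and each array left out.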

Additional observations from a re-analysis of the deposited data

Results flagged for a closer look

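In the control group of day 1, replicate 27 lay far from the other 5 arrays: its log2 value was 0, the floor, against 3.00 to 4.13 in the others. Its gap to the nearest of them, over the range of the group, was 0.726, above Dixon's critical value of 0.625 for 6 samples. The floor sets that gap: on scaled units, which have no floor, the array read -2.94 and the ratio was 0.535, below the critical value. It was the 1 such array among the 24 group and measure combinations examined, where chance gives about 1 in 20. The combinations reuse the same arrays and are not independent, so that rate is only a rough guide. The same array was the dimmest of all, and the 2 probes of miR-210 both read below 0 units on it. Why the array was dim was not tested.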

How the results depend on the processing

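Of 54 settings, 33 left out 1 array and 21 changed another choice. No setting gave an exposure change of miR-210 an adjusted p under 0.05. Normexp with an offset of 50 gave changes of -0.47 at day 1 and 0.42 at day 28, differences between days of 0.54, 0.89 (adjusted p 0.0218) and 0.35, control differences of -0.48, -0.87 (adjusted p 0.00105) and -0.39, and 0.016 for exposed day 28 minus day 1. No scaling gave the opposite signs for the called differences, -1.78 (0.0342) and 1.53 (0.00900), and moved the exposure changes the other way, to 0.94 at day 1 and -0.84 at day 28. By construction, the first adds 50 units before scaling, which lifts a dim probe most on dim arrays, and the second keeps array brightness in the values. Their median changes over all miRNAs were -0.36, 0.011 and 0.28 for normexp and 0.56, -0.11 and -0.65 without scaling. Total gene signal gave 0.89, -0.56 and -0.63 at days 1, 3 and 28, -0.065 for exposed day 3 minus day 1 and 0.010 for day 28 minus day 3. At day 28 quantile normalization gave -0.42 and the percentile over all probes -0.47. A floor of 10 gave -0.016 at day 1, 0.10 for day 3 minus day 1, and -0.0099 and -0.021 for control day 28 against days 1 and 3. The dim probe gave 0.11 and 0.073 for exposed day 28 against days 1 and 3, and slide as a fixed term 0.082 and 0.060, with -0.036 at day 3. Scan day gave -0.010 at day 3, an offset of 16 gave -0.00037 for control day 28 minus day 3, and leaving out replicate 27 and slide 1 gave 0.055 for day 3 minus day 1. The cause was not tested in these.

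miRNAs called went from 0 to 6 without scaling, 4 with quantile normalization, 3 with total gene signal, all-probe percentile or no filter, 2 with mean probes, random slide or no slide 1, and 1 with only miRNAs above background on all arrays, which leaves no value for miR-210, or without replicate 27 and slide 1, all at day 1. They went to 1 at day 3 and at day 28 without slide 1, with or without replicate 27, and to 1 at day 28 with normexp, quantile, no filter or a floor of 10. With each array left out in turn, the exposure changes were -0.017 to 0.81, -0.035 to 0.24 and -0.30 to -0.11, with 0 to 2, 0 to 0 and 0 to 4 miRNAs called. Differences between days were -0.72 to 0.10, -1.03 to -0.21 and -0.47 to -0.19, control differences 0.041 to 0.87, 0.049 to 0.87 and -0.083 to 0.10, and exposed differences 0.022 to 0.30, -0.25 to -0.033 and -0.46 to -0.18. Replicate numbers run through the series and pair no arrays, so pairs were formed by slide only. Signal over background limits all of this: miR-210 was above background on 17 of 33 arrays. The series table, in which miR-210 lay between 5.51 and 5.85, gave 0.048, 0.043 and -0.059.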
